A study of Mus musculus with 13 samples.

Results

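The 10 genes described here mark or drive heat production in brown and beige fat, and they were followed in the epididymal white fat of mice in which natural killer T (NKT) cells were activated. They are Ucp1, Ppargc1a, Ppargc1b, Cidea, Dio2, Prdm16, Tmem26, Tbx1, Elovl3 and Ppara, 10 of 18818 genes measured. A probe set belonged to a gene when the platform annotation gave it that gene symbol and no other. The 10 genes had 12 such probe sets, and Ppargc1a and Prdm16, with 2 each, are represented by the set with the highest mean.

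The RNA came from 13 arrays of male mice on the C57Bl/6J background, aged 6.5 weeks when killed, which had all eaten a high-fat diet for 4 days. The groups were wild type after α-galactosylceramide (αGalCer, n = 4), wild type after vehicle (n = 3), CD1d knockout after αGalCer (n = 3) and CD1d knockout after vehicle (n = 3). αGalCer was given into the peritoneum at 100 ng per g of body weight on days 0 and 2, the vehicle was pyridine, and the fat was taken on day 4. The knockout strain is named B6.129S6-Cd1d1/Cd1d2tm1spb/J in the labels, and it was bred beside C57/BL6 wild type mice. All 4 groups had the diet and the injections, so none was chow-fed or untouched. αGalCer is a glycolipid that activates NKT cells when CD1d presents it, and mice without CD1d lack these cells. The labels number the arrays of a group as replicates and do not say whether each came from its own mouse. The p-values therefore speak only of the spread among these samples, part of which may be technical.

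Brown and beige adipocytes burn fat for heat. Uncoupling protein in their mitochondria lets protons return without making ATP, under control of noradrenaline from sympathetic nerves, which acts through cyclic AMP. Coactivators and transcription factors such as those encoded by Ppargc1a, Ppara and Prdm16 switch on the thermogenic and fatty acid oxidation genes. Epididymal fat is a white depot in which beige adipocytes are scarce, and macrophages and lymphocytes share it with the adipocytes. The study's title sets NKT cell activation beside alternative macrophage activation and IL-4 signalling through STAT6, and the comparison of the 4 groups asks which effects of αGalCer need CD1d.

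The promoters of the 3 genes with the widest differences between group means, Tmem26, Ppargc1a and Ppara, are shown because these genes differed most and in opposite directions. Each runs from 250 bases before to 50 bases after the annotated gene start and comes from RefSeq on assembly GRCm38.p6, 5′ to 3′ on the gene's own strand. Only 1 start per gene was given for these 3, and any other start was not read. The 4 motifs searched, each on both strands, were the cyclic AMP response half-site TGACG, the nuclear receptor half-site AGGTCA, the STAT palindrome TTCNNNNGAA and the TATA box TATAAA. Capitals mark the matches. On the strand shown, a TGACG of the other strand reads CGTCA.
Tmem26, chr10:68723496-68723795, plus strand: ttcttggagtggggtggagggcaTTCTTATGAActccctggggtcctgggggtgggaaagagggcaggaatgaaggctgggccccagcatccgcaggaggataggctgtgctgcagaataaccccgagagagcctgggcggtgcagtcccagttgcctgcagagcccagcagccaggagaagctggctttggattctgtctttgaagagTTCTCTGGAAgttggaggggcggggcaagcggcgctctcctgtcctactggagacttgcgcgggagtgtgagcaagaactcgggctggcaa
Ppargc1a, chr5:51567676-51567975, minus strand: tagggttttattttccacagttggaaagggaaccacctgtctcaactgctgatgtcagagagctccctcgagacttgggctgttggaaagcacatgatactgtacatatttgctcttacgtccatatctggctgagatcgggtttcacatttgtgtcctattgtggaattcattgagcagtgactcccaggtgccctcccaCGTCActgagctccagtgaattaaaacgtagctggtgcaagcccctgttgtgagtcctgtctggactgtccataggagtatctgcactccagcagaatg
Ppara, chr15:85735526-85735825, plus strand: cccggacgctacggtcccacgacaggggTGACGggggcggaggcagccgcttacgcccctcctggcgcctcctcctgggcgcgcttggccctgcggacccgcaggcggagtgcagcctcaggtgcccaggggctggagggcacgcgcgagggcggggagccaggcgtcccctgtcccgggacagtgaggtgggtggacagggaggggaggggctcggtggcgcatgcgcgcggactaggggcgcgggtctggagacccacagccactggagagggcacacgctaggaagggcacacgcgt
The Tmem26 window held the STAT palindrome at 2 places, first bases 227 and 41 upstream of the start, and no other motif searched. Of 32851 windows of this length in the RefSeq table, 6.95% held at least 1 such palindrome and 0.323% (106 windows) at least 2. The Ppargc1a window held 1 cyclic AMP half-site, 49 bases upstream on the reverse strand, and the Ppara window held 1 at 222 bases upstream. That half-site stood in 20.8% of all windows, so it is a common sequence. The Ppara window was rich in G and C (74.7%), above Tmem26 (60.7%) and Ppargc1a (48.7%), where the median of all windows was 52.7%. The table matched 7 of the 10 genes, and Elovl3, Cidea and Ppargc1b were not matched. Of the other matched genes, Ucp1 held the cyclic AMP half-site 147 and the nuclear receptor half-site 14 bases upstream. Dio2 held overlapping cyclic AMP half-sites of opposite strands with first bases 95 and 92 upstream, and a TATA box 30 upstream. The 2 annotated starts of Tbx1 had a cyclic AMP half-site 30 bases downstream and 14 bases upstream, and the Prdm16 window held none of the 4 motifs. These matches are letters in a window and were not tested for binding.

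The knockout was as labelled. Cd1d1, the targeted gene, lay at 9.08 to 10.01 in wild type fat after αGalCer and 10.55 to 10.86 after vehicle, and at 2.64 to 3.56 and 3.45 to 4.03 in knockout fat. All values here are log2 array values, in which a step of 1 is a doubling. A level is the log2 value of 1 probe set, so levels of different genes are set against each other only to point out dim genes. The 12 measured adipocyte markers averaged 10.40 to 11.11 in wild type fat after αGalCer and 12.09 to 12.19 after vehicle, and 12.20 to 12.23 and 12.19 to 12.30 in knockout fat, so adipocyte RNA was present in every array. Between the 2 wild type groups, 12 of 12 adipocyte markers fell, 8 of 8 endothelial markers fell, 12 of 13 macrophage markers rose and 7 of 7 T cell markers rose. In bulk tissue, fewer cells of a type and less RNA per cell cannot be told apart. A few arrays also carried RNA of other tissue. The 13 skeletal muscle markers averaged 8.76 in knockout αGalCer replicate 3 and 8.56 and 6.89 in knockout vehicle replicates 1 and 2, against 5.03 to 5.89 in the other 10 arrays. The 11 markers of ciliated and ductal epithelium averaged 7.97 in knockout vehicle replicate 1 and 7.13 and 7.16 in wild type vehicle replicates 1 and 3. They averaged 5.80 in wild type vehicle replicate 2, 6.23 and 5.31 in knockout vehicle replicates 2 and 3, and 4.94 to 5.11 in all 7 αGalCer arrays. The 9 measured epididymis and testis markers averaged 5.13 in wild type vehicle replicate 3, one of these epithelium-rich arrays, against 3.98 to 4.39 in the other 12. That average did not rest on all 9 alike. In wild type vehicle arrays Adam7 varied most (5.61 ± 3.25, SD, n = 3), whereas Lcn5 varied little (4.33 ± 0.04). Without wild type vehicle replicate 3, 6 of the 10 genes were called in wild type, and Cidea was not (-0.57). Of all 18818 genes, 6753 were called in that fit.

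In wild type fat αGalCer changed 7 of the 10 genes, 2 upwards and 5 downwards. Tmem26, a membrane protein used as a surface marker of beige adipocytes, was 11.5-fold higher, and the coactivator Ppargc1b was 1.7-fold higher. Ppargc1a was 3.93-fold lower, the fatty acid sensor Ppara 3.06-fold lower, and Tbx1, Prdm16 and Cidea 1.94-fold, 1.66-fold and 1.45-fold lower. Ucp1, Dio2 and Elovl3 did not pass the test. The test was limma over all genes with Benjamini-Hochberg adjustment, and calls were made where the adjusted p was under 0.05. Over all genes 41.9% were called in this comparison, 19.8% higher and 22% lower, so calls are common here and 7 of 10 is to be read against that share. The median change was -0.39 for the 10 genes and -0.02 for all genes. The groups did not overlap for 8 of the 10 genes, the 7 called and Dio2, where 46.7% of all genes did not overlap.

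**Figure D1:**
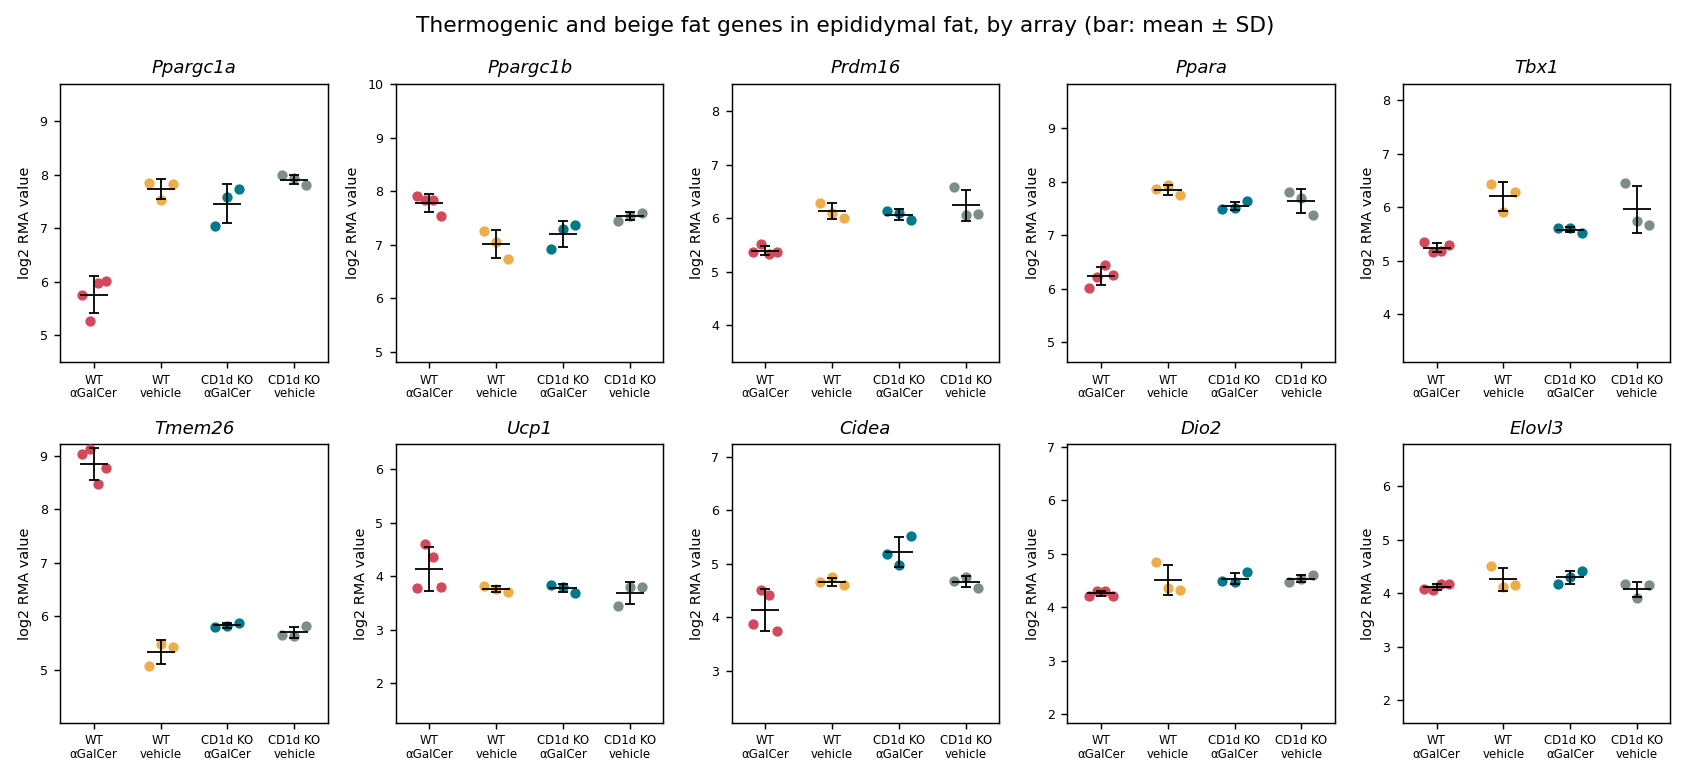
Log2 RMA value of each of the 10 genes (y axis, 1 panel per gene, each spanning the same number of log2 units) in each of the 13 arrays, by group (x axis). Points are arrays and bars are mean ± SD. The 4 wild type αGalCer arrays stand clear above the rest for Tmem26 and clear below it for Ppargc1a, Ppara and Prdm16.

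Ppargc1a encodes the coactivator that brings mitochondrial biogenesis and the Ucp1 gene under cyclic AMP control. It lay at 5.76, 5.27, 5.97 and 6.02 in the 4 wild type αGalCer arrays and at 7.84, 7.52 and 7.83 in the 3 wild type vehicle arrays. In knockout fat it lay at 7.05, 7.59 and 7.74 after αGalCer and at 7.99, 7.93 and 7.81 after vehicle. The wild type αGalCer arrays were below all 9 other arrays, and the other 3 groups overlapped their neighbours in the order of means. The change was -1.98 ± 0.19 in wild type (± is the standard error, SE, of the fit; adjusted p = 3.28e-06) and -0.45 ± 0.21 in knockout (adjusted p = 0.734). These effects differed by -1.53 ± 0.28 (adjusted p = 0.00129). The dimmer of its 2 probe sets gave the same picture, with means of 5.08 ± 0.25 (SD, n = 4) in wild type αGalCer arrays and 6.83 ± 0.08 (SD, n = 3) in wild type vehicle arrays. In knockout fat that probe set averaged 6.54 ± 0.15 after αGalCer and 6.91 ± 0.17 after vehicle (SD, n = 3 each).

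Ppargc1b, a relative of Ppargc1a that also coactivates mitochondrial genes and is known from IL-4-treated macrophages as well as from fat, moved the other way. It lay at 7.91, 7.84, 7.83 and 7.53 in wild type αGalCer arrays and at 7.26, 7.05 and 6.73 in wild type vehicle arrays. In knockout fat it lay at 6.92, 7.29 and 7.37 after αGalCer and at 7.45, 7.54 and 7.60 after vehicle. The wild type αGalCer arrays overlapped the knockout vehicle arrays and were above all others. Its change was 0.76 ± 0.15 in wild type (adjusted p = 0.000825) and -0.34 ± 0.16 in knockout (adjusted p = 0.731), and the difference of 1.10 ± 0.21 was called (adjusted p = 0.00166). Part of that difference rests on the vehicle arrays, where knockout fat was higher by 0.52 ± 0.16 (adjusted p = 0.434). Macrophage markers averaged 10.82 to 11.01 in wild type αGalCer arrays, 8.72 to 9.48 in wild type vehicle arrays, and 9.39 to 9.81 after αGalCer and 9.17 to 9.30 after vehicle in knockout fat. Their part in the rise of Ppargc1b was not tested.

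Ppara, the nuclear receptor that senses fatty acids and drives their oxidation, lay at 6.02, 6.22, 6.44 and 6.27 in wild type αGalCer arrays and at 7.87, 7.94 and 7.75 in wild type vehicle arrays. In knockout fat it lay at 7.50, 7.52 and 7.64 after αGalCer and at 7.82, 7.70 and 7.39 after vehicle. The wild type αGalCer arrays were again alone at the low end, and the other 3 groups overlapped their neighbours. Its change was -1.61 ± 0.12 in wild type (adjusted p = 4.39e-07) and -0.09 ± 0.13 in knockout, where the 95% interval of -0.37 to 0.20 leaves out a fall of the wild type size. The effects differed by -1.53 ± 0.18 (adjusted p = 5.39e-05). In rank, Ppargc1a had the 232nd and Ppara the 481st lowest change of 18818 genes in wild type. The 12 adipocyte markers had a median change of -1.0 in the same comparison, and they differed in size. Slc2a4 averaged 7.43 in wild type αGalCer arrays and 10.08 in wild type vehicle arrays, and Fabp4 averaged 11.69 and 12.55. The part of adipocyte content in the fall of Ppargc1a and Ppara was not tested.

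Prdm16, a zinc finger protein that sets brown and beige fat identity, lay at 5.37, 5.51, 5.32 and 5.37 in wild type αGalCer arrays and at 6.29, 6.10 and 6.00 in wild type vehicle arrays. It lay at 6.14, 6.10 and 5.96 in knockout αGalCer arrays and at 6.58, 6.06 and 6.07 in knockout vehicle arrays, and these 3 groups overlapped. The change was -0.73 ± 0.13 in wild type (adjusted p = 0.000547) and -0.17 ± 0.14 in knockout (adjusted p = 0.802). The difference of these effects was called narrowly, at -0.56 ± 0.19 (adjusted p = 0.0464), and it lost the call in 14 of 25 alternative settings. Leaving out a single array ended this call for 10 of the 13 arrays, with values from -0.62 without knockout αGalCer replicate 3 to -0.47 without knockout vehicle replicate 2. The exceptions were wild type vehicle replicate 3 (-0.63), wild type αGalCer replicate 2 (-0.60) and knockout vehicle replicate 1 (-0.73). A second, dimmer probe set of Prdm16, which the annotation ties to 1 transcript record, went against the fall. It averaged 5.19 ± 0.09 (SD, n = 4) in wild type αGalCer arrays and 5.09 ± 0.12 (SD, n = 3) in wild type vehicle arrays, a change of 0.09 ± 0.10 (adjusted p = 0.532). The brighter set is annotated to 5 transcript records, that one among them, so the 2 sets disagree on whether the gene fell.

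**Figure D2:**
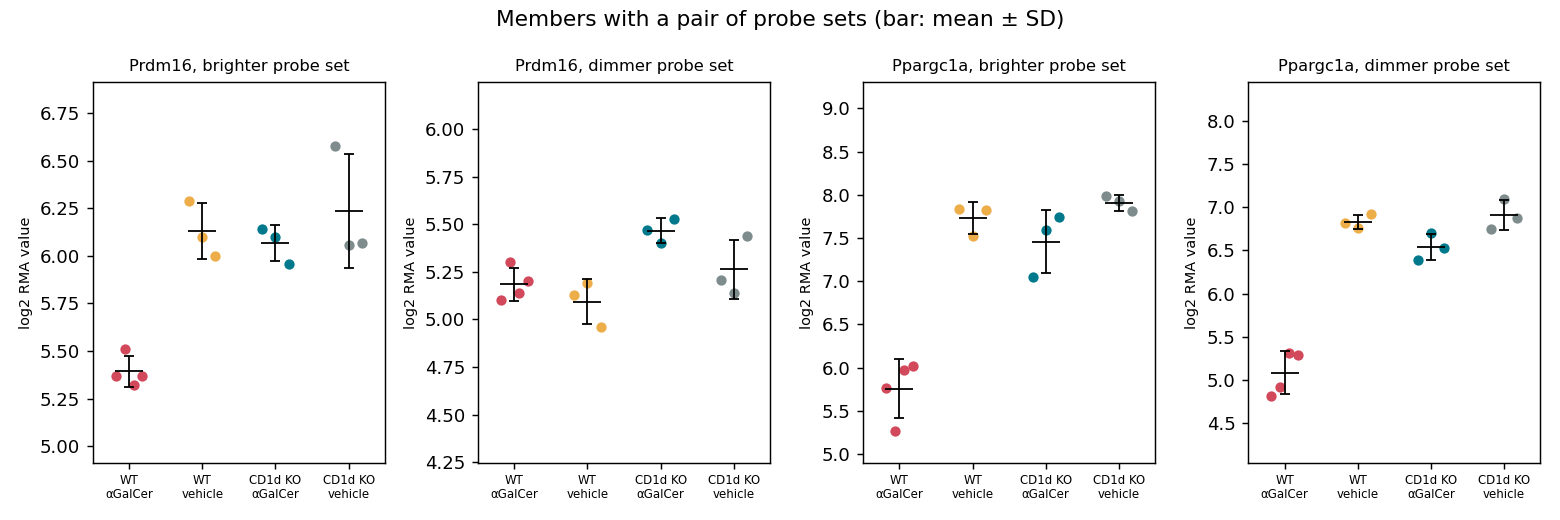
Log2 RMA value (y axis) of the brighter and dimmer probe sets of Prdm16 and Ppargc1a in each array, by group (x axis). Points are arrays and bars are mean ± SD. Both Ppargc1a sets are lowest in wild type after αGalCer, whereas the dimmer Prdm16 set averages 5.19 there and 5.09 after vehicle.

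Tbx1, a T-box transcription factor used as a beige adipocyte marker, lay at 5.35, 5.16, 5.18 and 5.30 in wild type αGalCer arrays and at 6.43, 5.91 and 6.28 in wild type vehicle arrays. In knockout fat it lay at 5.61, 5.61 and 5.52 after αGalCer and at 6.46, 5.75 and 5.67 after vehicle. In both genotypes the αGalCer arrays were below all vehicle arrays. The change was -0.96 ± 0.18 in wild type (adjusted p = 0.00069) and -0.38 ± 0.19 in knockout (adjusted p = 0.74). The effects differed by -0.58 ± 0.26 (adjusted p = 0.13), so its fall was not shown to differ between genotypes. Its highest values, 6.46, 6.43 and 6.28, stood in the 3 arrays with the most ciliated and ductal epithelium RNA. Without those 3 arrays, a choice made after seeing the data, the wild type change was -0.66 ± 0.13 (adjusted p = 0.0028) and the difference of effects was -0.52 ± 0.17 (adjusted p = 0.0453). Without knockout vehicle replicate 1 alone, the difference was -0.83 ± 0.19 (adjusted p = 0.00512). With all 3 epithelium-rich arrays left out, the wild type vehicle group held 1 array, which was assumed to vary like the other groups.

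Tmem26 showed the widest separation. It lay at 9.02, 9.13, 8.47 and 8.76 in wild type αGalCer arrays and at 5.07, 5.48 and 5.42 in wild type vehicle arrays. It lay at 5.79, 5.82 and 5.87 in knockout αGalCer arrays and at 5.65, 5.62 and 5.81 in knockout vehicle arrays. The lowest wild type αGalCer array, 8.47, was above the highest array of any other group, 5.87, and the 2 knockout groups overlapped. The change was 3.52 ± 0.15 in wild type (adjusted p = 1.17e-08), the 58th highest of 18818 genes, and 0.13 ± 0.16 in knockout, with a 95% interval of -0.22 to 0.48. The difference of effects was 3.39 ± 0.22 (adjusted p = 1.87e-06). Tmem26 rose together with macrophage, T cell and NK cell markers, and the 8 NK cell markers averaged 7.43 to 8.53 in wild type αGalCer arrays and 4.85 to 5.30 in wild type vehicle arrays. Their part in its rise was not tested. Of the beige markers in the set, Tmem26 rose and Tbx1 fell.

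Ucp1, the uncoupling protein that makes heat, was near the bottom of the array's range, with a mean in the 16th percentile of all genes. It lay at 3.79, 4.60, 4.36 and 3.81 in wild type αGalCer arrays and at 3.82, 3.77 and 3.71 in wild type vehicle arrays. It lay at 3.84, 3.81 and 3.69 in knockout αGalCer arrays and at 3.45, 3.80 and 3.81 in knockout vehicle arrays. Wild type αGalCer replicates 2 and 3 were above every other array, while replicates 1 and 4 lay among the vehicle values. The change in wild type was 0.37 ± 0.18 (95% interval -0.01 to 0.75, adjusted p = 0.112) and in knockout 0.09 ± 0.19 (adjusted p = 0.916), and the effects differed by 0.28 ± 0.26 (adjusted p = 0.501). Without wild type αGalCer replicate 1 or 4, the change was 0.49 or 0.48 (adjusted p = 0.0378 or 0.0451).

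Cidea, a lipid droplet protein abundant in brown fat, lay at 3.88, 4.52, 4.41 and 3.74 in wild type αGalCer arrays and at 4.66, 4.75 and 4.60 in wild type vehicle arrays. In knockout fat it lay at 5.18, 4.98 and 5.53 after αGalCer and at 4.69, 4.75 and 4.55 after vehicle. The genotypes went opposite ways, and neither pair of groups overlapped. Cidea was dim as well, with a mean in the 27.3rd percentile of all genes and an average of 4.14 in wild type αGalCer arrays. The change was -0.53 ± 0.18 in wild type (adjusted p = 0.0328), a call lost in 10 of 26 alternative settings. It was lost without any 1 of the 3 wild type vehicle arrays (-0.54, -0.49 and -0.57 without replicates 1, 2 and 3) and without wild type αGalCer replicate 1 (-0.45) or 4 (-0.40). In knockout it was 0.56 ± 0.20 (adjusted p = 0.72), so the knockout value alone was not called. The difference of the effects was -1.10 ± 0.27 (adjusted p = 0.00774), which lost its call without the 3 arrays rich in muscle RNA (-1.06 ± 0.35, adjusted p = 0.0605). After αGalCer, knockout fat was above wild type fat by 1.09 ± 0.18 (adjusted p = 0.000307).

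The remaining effectors were low and close to flat. Dio2, the deiodinase that makes active thyroid hormone inside brown adipocytes, ranged from 4.21 to 4.31 in wild type αGalCer arrays and from 4.33 to 4.84 in wild type vehicle arrays, a difference of -0.25 ± 0.12 (adjusted p = 0.11). It averaged 4.54 ± 0.10 after αGalCer and 4.53 ± 0.07 after vehicle in knockout fat (SD, n = 3 each). Elovl3, which elongates very long fatty acids in brown fat exposed to cold, averaged 4.12 ± 0.06 (SD, n = 4) in wild type αGalCer arrays and 4.27 ± 0.21 (SD, n = 3) in wild type vehicle arrays. The difference was -0.15 ± 0.11 (95% interval -0.38 to 0.09, adjusted p = 0.319). In knockout fat Elovl3 averaged 4.30 ± 0.13 after αGalCer and 4.08 ± 0.14 after vehicle (SD, n = 3 each). Ucp1, Dio2 and Elovl3 had means below 4.49, the lower quartile of all genes, where array values are compressed and a change is understated. Their intervals do not show that their levels were the same.

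In knockout fat αGalCer changed 0 of the 10 genes in the limma test, as it changed 0% of all genes. At an unadjusted p under 0.05 there were 2 of the 10 genes, Cidea and Ppargc1b, and 1281 of all genes (6.81%). The groups did not overlap for 4 of the 10 genes, 1 higher and 3 lower. Over all genes 13.8% did not overlap, 7.79% higher and 6.04% lower. These were Cidea, Ppargc1a, Ppargc1b and Tbx1. The changes ran from -0.45 for Ppargc1a to 0.56 for Cidea with a median of -0.04.

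**Figure D3:**
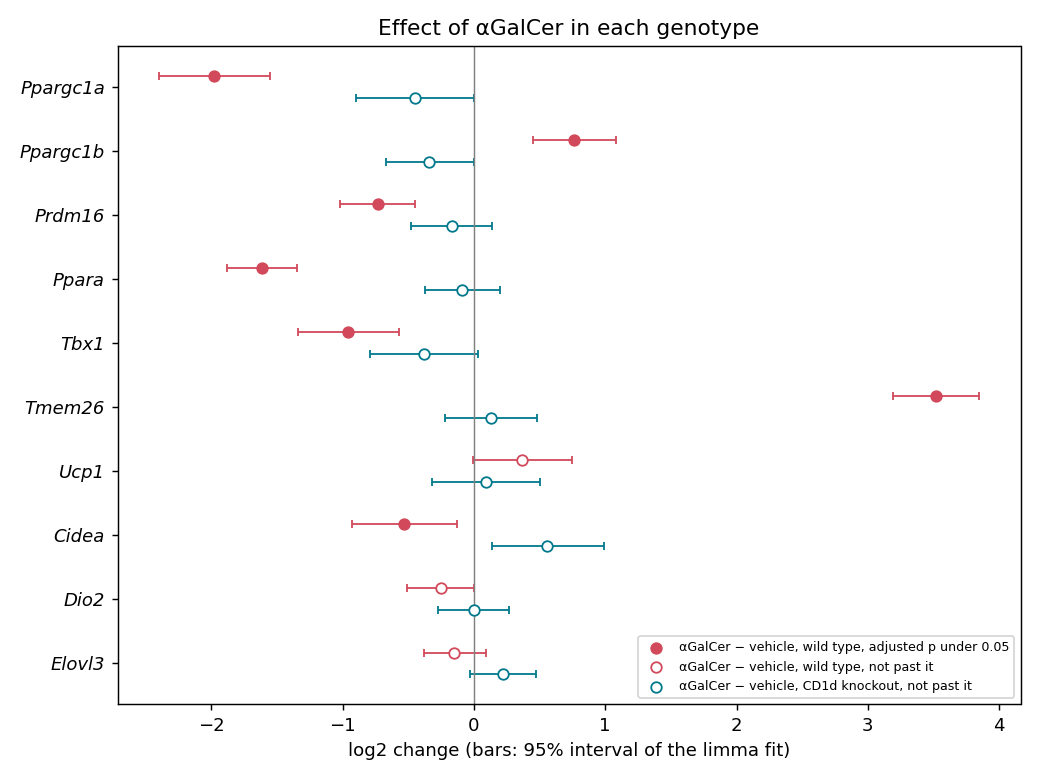
Log2 change of each gene after αGalCer against vehicle (x axis) in wild type (red) and CD1d knockout (blue), with the 95% interval of the limma fit as bars. Filled points passed an adjusted p under 0.05. All 7 filled points are wild type, from -1.98 for Ppargc1a to 3.52 for Tmem26, and the knockout values lie between -0.45 and 0.56.

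The difference between the genotypes' αGalCer effects was tested directly, and 6 of the 10 genes passed, 2 with a positive and 4 with a negative difference. Over all genes 28.2% passed. They were Tmem26, Ppargc1b, Ppargc1a, Ppara, Cidea and Prdm16, and their effects are given above. Tbx1, Elovl3, Dio2 and Ucp1 did not pass. With 3 or 4 arrays a group, a miss does not show that the effects were alike.

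Between the genotypes after vehicle, 0 of the 10 genes were called, against 0.112% of all genes (21 genes, 0.0903% higher and 0.0213% lower). At an unadjusted p under 0.05 there were 2, Ppargc1b (0.52 ± 0.16) and Tmem26 (0.37 ± 0.16, adjusted p = 0.721), both higher in knockout fat, and 1258 of all genes (6.69%). These 2 were also the genes whose groups did not overlap, where 11.2% of all genes did not, 7.38% higher and 3.8% lower. The other 8 ran from -0.25 for Tbx1 to 0.18 for Ppargc1a. After αGalCer, 6 of the 10 genes were called between the genotypes, against 41.1% of all genes, 21.9% higher and 19.2% lower. The groups did not overlap for 8 of the 10 genes, against 50.4% of all genes. Knockout fat was higher for Ppargc1a (1.71 ± 0.19, 3.26-fold, adjusted p = 1.13e-05), Ppara (1.31 ± 0.12, 2.48-fold, adjusted p = 2.14e-06), Cidea and Prdm16 (0.67 ± 0.13, adjusted p = 0.00107). Knockout fat was lower for Tmem26 (-3.02 ± 0.15, 8.11-fold, adjusted p = 3.84e-08) and Ppargc1b (-0.58 ± 0.15, adjusted p = 0.00534). Tbx1 (0.33 ± 0.18, adjusted p = 0.172), Ucp1 (-0.36 ± 0.18, adjusted p = 0.125), Dio2 (0.28 ± 0.12, adjusted p = 0.0801) and Elovl3 (0.18 ± 0.11, adjusted p = 0.211) did not pass. Dio2 passed without wild type vehicle replicate 1 (0.28, adjusted p = 0.0128), Tbx1 without knockout vehicle replicate 1 (0.33, adjusted p = 0.0427) and Ucp1 without wild type αGalCer replicate 1 (-0.48, adjusted p = 0.0424). This comparison shares its wild type αGalCer arrays with the comparison inside wild type, so the opposite signs of the 2 are no separate evidence.

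Cell type markers stood beside 3 of these genes in different ways. Tbx1 was highest in the arrays with the highest epithelial markers. Ppargc1b was 7.53 or more in all 4 wild type αGalCer arrays, where macrophage markers were highest, but also reached 7.54 and 7.60 in knockout vehicle arrays, where those markers averaged at most 9.30. Ppargc1a was low only where adipocyte markers were low, and its lowest array, 5.27, had the lowest adipocyte average, 10.40. Endothelial and fibroblast markers were also lowest in the 4 wild type αGalCer arrays. In the array with the lowest Ppargc1a value they averaged 8.16 and 8.93, the lowest of all arrays. The part of any cell type in these values was not tested. These are descriptions of 13 arrays in 4 groups.

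**Figure D4:**
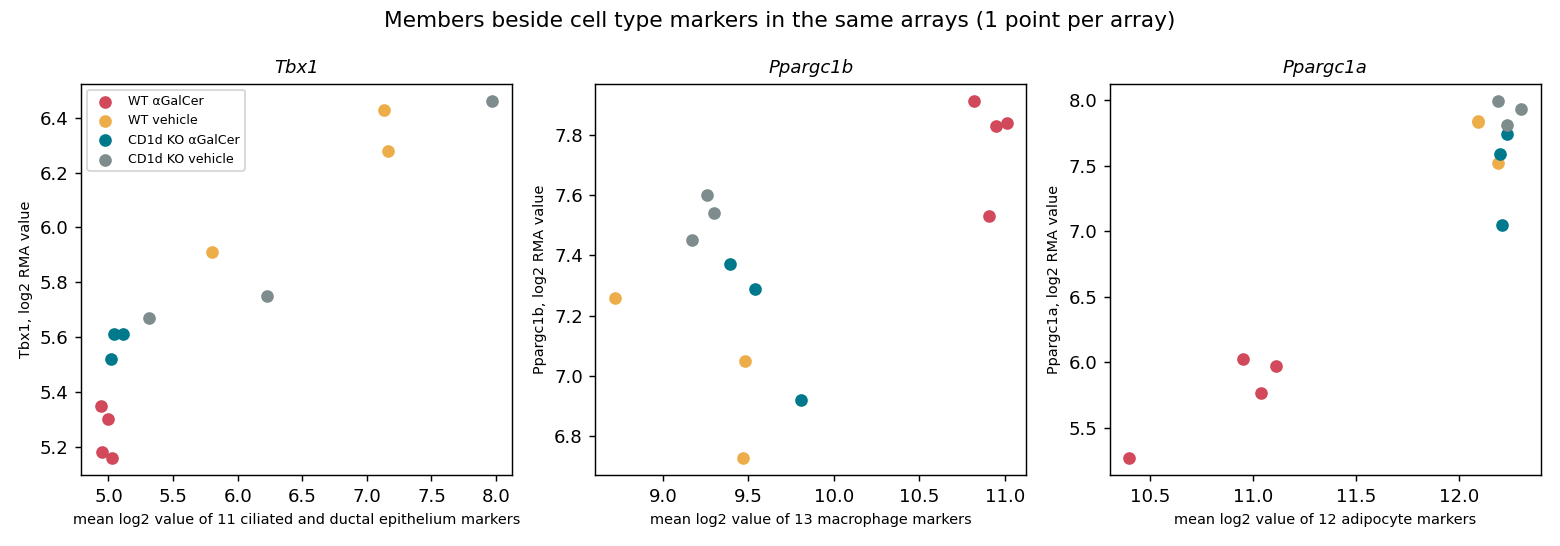
Log2 RMA value of Tbx1, Ppargc1b and Ppargc1a (y axes) beside the mean log2 value of ciliated and ductal epithelium, macrophage and adipocyte markers (x axes) in the same array, 1 point per array, coloured by group. The highest Tbx1 values sit at epithelial averages of 7.13 and above, and the 4 low Ppargc1a values sit at adipocyte averages of 11.11 and below.

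For the 3 genes that changed by at least 1 on the log2 scale in wild type, the genes with the most similar course over the 13 arrays were sought, by the root mean square difference after centring each gene. For Tmem26 they were Cst7, a protease inhibitor of leukocytes (0.18 log2 units), the cytokine receptor Il21r (0.22) and the interferon-induced factor Batf2 (0.23). Cst7 averaged 8.85 in wild type αGalCer arrays, 5.29 in wild type vehicle arrays, and 5.63 and 5.50 in knockout αGalCer and vehicle arrays. For Ppargc1a they were Klb, the coreceptor for fibroblast growth factor hormones (0.18), the leucine breakdown enzyme Mccc2 (0.18) and the motor protein Myo6 (0.19). Klb averaged 7.31, 9.33, 8.79 and 9.31 in wild type αGalCer, wild type vehicle, knockout αGalCer and knockout vehicle arrays. For Ppara they were Gpd1, which makes glycerol phosphate for fat storage (0.11), the microRNA gene Mir100 (0.15) and Arxes1 (0.16). Gpd1 averaged 10.92, 12.42, 12.18 and 12.32 in the same order of groups. Most of each likeness is the step between the wild type αGalCer arrays and the rest.

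Most lists of genes around the set had a median change below that of all genes in wild type fat after αGalCer, beside the fall of adipocyte markers. The exception was the list for heat production without Ucp1. Of 28 measured further markers of brown and beige fat, 4 rose, 15 fell and 9 did not pass, with a median of -0.46. That is 14.3% higher and 53.6% lower, where 19.8% and 22% of all genes were called higher and lower. Cox8b, a cytochrome oxidase subunit typical of brown fat, averaged 6.69 in wild type αGalCer arrays and 8.54 in wild type vehicle arrays, a fall of 1.85 ± 0.31 (adjusted p = 0.000324). Its effect differed from that in knockout by -2.05 ± 0.46 (adjusted p = 0.00433). The part of the muscle RNA of 3 knockout arrays in that difference was not tested. The fatty acid transporter Slc27a2 fell by 2.19 ± 0.51 (adjusted p = 0.00347), but its knockout value was about as large (-2.14 ± 0.54, adjusted p = 0.72), and without the 3 epithelium-rich arrays its wild type change was -1.39. The rises were led by Tnfrsf9 (1.99 ± 0.25, adjusted p = 2.47e-05), used as a beige marker and also a costimulatory receptor of T cells, and by Epsti1 (1.88 ± 0.17, adjusted p = 2.09e-06), a brown fat marker that interferon also induces.

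Noradrenaline and cyclic AMP signalling was represented by 17 of 24 listed genes. The other 7, the listed adrenergic receptors among them, were not analysed here. Of the 17, 9 fell, 0 rose and 8 did not pass, with a median of -0.31 (52.9% lower, against 22% of all genes). The list was not split into genes that carry and genes that damp the signal, so its counts give no direction for it. The kinase subunit Prkar2b fell by 1.75 ± 0.16 (adjusted p = 1.84e-06) and the natriuretic peptide clearance receptor Npr3 by 1.71 ± 0.18 (adjusted p = 6.59e-06). Th and Dbh, the enzymes that make noradrenaline in nerves, lay at 4.01 and 3.85 in wild type αGalCer arrays and at 4.15 and 3.99 in wild type vehicle arrays, with adjusted p = 0.442 and 0.351. The 5 nerve and Schwann cell markers, Th and Dbh among them, averaged 4.74 to 5.06 in all arrays, and 0 of them passed the test. Th and Dbh had means below 4.49, the lower quartile of all genes, where a change is understated. These values do not show that nerve input was unchanged.

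Among 33 regulators of beige fat identity 6 rose, 16 fell and 11 did not pass (median -0.29). The list was not split into genes that promote and genes that restrain that identity, so its counts give no direction for it. The share that rose, 18.2%, was near the 19.8% of all genes, and the share that fell, 48.5%, stood beside 22% of all genes. The glucocorticoid-responsive factor Klf15 fell by 2.25 ± 0.21 (adjusted p = 2.16e-06) and the zinc finger factor Zbtb16 by 1.76 ± 0.19 (adjusted p = 8.23e-06). Irf4, a partner of the Ppargc1a protein in brown fat that lymphocytes and macrophages also express, rose by 1.21 ± 0.21 (adjusted p = 0.000358), but by 0.80 without the epithelium-rich arrays. Cebpb, which Prdm16 binds in brown fat precursors, rose by 1.20 ± 0.14 (adjusted p = 1.29e-05).

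Of 23 targets of PPARα and its coactivators in fatty acid oxidation and mitochondria, 1 rose, 13 fell and 9 did not pass (median -0.33), or 4.35% higher and 56.5% lower against 19.8% and 22% of all genes. Vnn1, a pantetheinase under PPARα control, fell by 2.04 ± 0.26 (adjusted p = 2.9e-05) and the peroxisomal enzyme Ehhadh by 1.73 ± 0.16 (adjusted p = 1.99e-06). Cpt1a, the carnitine transferase that admits fatty acids to mitochondria, rose by 0.24 ± 0.09 (adjusted p = 0.0467), a call lost at a similar size without the muscle-rich arrays (0.24, adjusted p = 0.0558) and without the epithelium-rich arrays (0.20, adjusted p = 0.248). Targets with a value but no call included Angptl4 (0.28 ± 0.18, adjusted p = 0.255) and Pdk4 (-0.31 ± 0.16, adjusted p = 0.144).

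The thyroid hormone genes around Dio2 fell in 8 of 11 cases (72.7%, against 22% of all genes), with 0 higher and a median of -0.52. Thrsp, a thyroid and carbohydrate responsive gene of fat synthesis, fell by 3.30 ± 0.43 (adjusted p = 3.62e-05), and malic enzyme Me1 by 2.23 ± 0.24 (adjusted p = 6.74e-06). Both also belong to fat synthesis in adipocytes, whatever the hormone. This list was not split by role either, so its counts give no direction for thyroid hormone signalling. Heat production without Ucp1 was represented by 12 genes, all of creatine or calcium cycling except Pm20d1. Of these, 1 rose, 2 fell and 9 did not pass, with a median of -0.02, the same as all genes. The shares called, 8.33% higher and 16.7% lower, were below the 19.8% and 22% of all genes. Gatm, the first enzyme of creatine synthesis, averaged 11.56 in wild type αGalCer arrays and 8.61 in wild type vehicle arrays, a rise of 2.95 ± 0.16 (7.71-fold, adjusted p = 5.92e-08). It averaged 8.51 after αGalCer and 8.55 after vehicle in knockout fat, and the difference of effects was 2.99 ± 0.23 (adjusted p = 5.67e-06). Gamt, the second enzyme of the same path, fell by 1.38 ± 0.11 (adjusted p = 5.8e-07), and Pm20d1, which makes uncoupling amino acid lipids, by 0.99 ± 0.22 (adjusted p = 0.0026).

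Relatives of the 10 genes also divided. Of 23 measured paralogs 3 rose, 11 fell and 9 did not pass (median -0.52), or 13% higher and 47.8% lower against 19.8% and 22% of all genes. Pprc1, the other member of the Ppargc1a and Ppargc1b family, rose by 0.99 ± 0.16 (adjusted p = 0.000258), so within that family 2 genes rose and 1 fell. Prdm1, a Prdm16 relative that lymphocytes and macrophages express, rose by 1.39 ± 0.12 (adjusted p = 1.47e-06). Elovl6, which elongates the products of fat synthesis, fell by 1.83 ± 0.18 (adjusted p = 3.96e-06). Cideb, a relative of Cidea known from liver and gut, fell by 1.97 ± 0.63 (adjusted p = 0.0226), with -2.14 ± 0.67 in knockout (adjusted p = 0.72) and -1.05 in wild type without the epithelium-rich arrays. Of the other nuclear receptors of the Ppara family, Pparg had a change of -1.03 ± 0.10 (adjusted p = 4.38e-06) and Ppard one of -0.31 ± 0.11 (adjusted p = 0.0346). Some genes stand in more than 1 of these lists, and Pparg and Cidec are also adipocyte markers. In knockout fat 0 genes of all 7 lists were called.

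**Figure D5:**
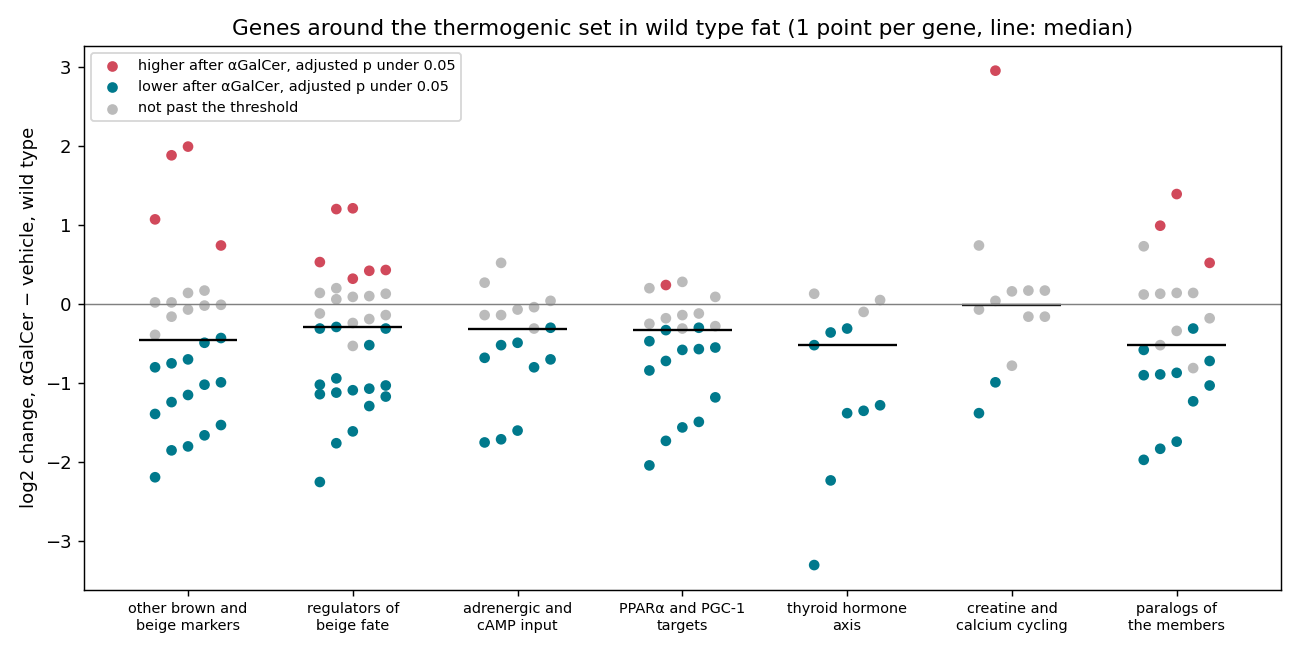
Log2 change after αGalCer against vehicle in wild type fat (y axis) for the measured genes of 7 lists around the thermogenic set (x axis), 1 point per gene, with the median as a line. Red and blue points passed an adjusted p under 0.05, higher and lower, and grey points did not. Medians run from -0.52 to -0.02, and Gatm, at 2.95, stands above the other genes shown.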

How the data were processed

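Epididymal fat RNA of 13 samples was measured on Affymetrix arrays. Per the submitters' processing notes, the authors made the deposited log2 values per probe set with RMA, which corrects background, quantile normalises and summarises probes. The version, chip description file, build and scan dates: not given in the sources used here. No batch was tested and no probe set was declared absent. Precision is limited by the number of arrays.

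Of 35556 probe sets, 21218 had 1 gene symbol, and 21185 of these were matched through Entrez identifiers to RefSeq names (GRCm38.p6, used for names and promoters). The brightest probe set stood for each of 18818 genes, with no filter on dim genes. limma (version 3.58.1, R 4.3.3) fitted 4 group means to all 13 arrays, with 9 residual degrees of freedom, eBayes moderation and an intensity trend. Tests were two-sided and adjusted over all genes by Benjamini-Hochberg. The fits were tested on simulated data.

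The 10 genes and the gene lists were chosen with earlier results of these data known. All 10 were reported whatever their p. Each list added up to 2 largest called rises and 2 largest called falls in wild type, and each of the 10 genes called there with a change of at least 1 added the 3 genes most like it. Other genes of the lists, such as Th, Dbh, Angptl4, Pdk4, Pparg and Ppard, were added after their values were seen. Alternatives covered the variance model, a filter on dim genes, normalisation, array weights, the replicate number as a block, probe set choice, a fold minimum of 1.5, the groups in the fit and each array left out. Leaving out 3 epithelium-rich arrays was chosen after seeing the data.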

Additional observations from a re-analysis of the deposited data

Results flagged for a closer look

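The effect of αGalCer differed between the genotypes, by the limma test of the difference itself, for 6 of the 10 genes. The differences, wild type minus knockout effect, were 3.39 for Tmem26, 1.10 for Ppargc1b, -1.10 for Cidea, -1.53 for Ppargc1a, -1.53 for Ppara and -0.56 for Prdm16, and 28.2% of all genes passed the same test. For Cidea the effects had opposite signs, -0.53 in wild type and 0.56 in knockout. For Prdm16 the dimmer probe set gave a difference of -0.11 (adjusted p = 0.677). In the 10 sets of 4 wild type αGalCer values, 1 per gene, 0 arrays stood far from the others by Dixon's test at the 95% level.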

How the results depend on the processing

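Under 26 alternative settings, 1201 of 1275 values of the 10 genes kept their direction and their side of the threshold, 26 lost a call, 18 gained one and 30 changed sign. In wild type the calls of Tmem26 (3.36 to 3.64), Ppargc1a (-2.08 to -1.75), Ppara (-1.70 to -1.54), Tbx1 (-1.11 to -0.66) and Ppargc1b (0.62 to 0.89) held in all 26. With 1 array left out, the number of the 10 genes called ran from 6 to 7 for αGalCer in wild type, where 6753 to 8766 of all 18818 genes were called. It ran from 5 to 7 for the difference of effects (4531 to 5597 of all genes) and from 6 to 7 between genotypes after αGalCer (6674 to 8468). It was 0 in each fit for αGalCer in knockout (0 to 2 of all genes) and between genotypes after vehicle (11 to 35). Samples with the same replicate number did not deviate together in general (r from -0.20 to 0.48 over 18 pairs, 5 above 0.1). Of 36 arrays by other group, 13 correlated best with their own number. Replicate 1 of wild type vehicle had r = 0.30 with that of wild type αGalCer and 0.48 with that of knockout vehicle. The latter 2 had r = 0.38, and replicate 2 of the vehicle groups had 0.48. Without scan dates, these values do not show whether such arrays share more than a replicate number. With that number as a replicate block, 7 of the 10 genes were called in wild type, Ucp1 among them (0.48, adjusted p = 0.0352) and Cidea not (-0.40, adjusted p = 0.102). The block gave 6 for the difference, 7 between genotypes after αGalCer and 0 in the other 2 comparisons. Of all 18818 genes it called 7766 in wild type, 5461 for the difference and 7637 between genotypes after αGalCer. It called 0 for αGalCer in knockout and 17 between genotypes after vehicle.

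Sign changes were of values near 0 that were not called, except for Prdm16 in wild type with its lowest-mean probe set (0.09). With that probe set Prdm16 in knockout was 0.20. With array weights the knockout effects of Dio2 and Prdm16 were -0.02 and 0.005, and the knockout minus wild type values after vehicle of Ucp1, Cidea and Prdm16 were 0.04, 0.06 and -0.001. Quantile normalisation gave -0.005 for Dio2 after vehicle. Without the 3 muscle-rich arrays the knockout effects of Dio2, Prdm16, Tmem26 and Ppara were -0.12, 0.05, -0.003 and 0.12, and the values after vehicle of Ucp1 and Prdm16 were 0.04 and -0.06. Without the 3 epithelium-rich arrays the knockout effects of Ucp1, Dio2 and Ppara were -0.03, -0.03 and 0.01, and the values after vehicle of Ucp1 and Prdm16 were 0.04 and -0.03. With 1 array left out at a time, values after vehicle ran from -0.07 to 0.19 for Dio2, -0.05 to 0.05 for Cidea, -0.14 to 0.04 for Ucp1 and -0.06 to 0.20 for Prdm16, and knockout effects from -0.05 to 0.04 for Dio2, -0.03 to 0.15 for Ucp1 and -0.21 to 0.01 for Ppara. The cause was not tested.

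Over all genes, the counts called moved by more than 1.5 times in few settings. With array weights, αGalCer in knockout called 322 genes (0 in the fit reported) and the genotypes after vehicle 169 (21 as reported). A fold minimum of 1.5 left 5019 of 7881 genes in wild type and 4888 of 7739 between genotypes after αGalCer. The genotypes after vehicle differed in 4 genes with only the 2 groups compared, in 1 and 4 without the muscle-rich and the epithelium-rich arrays, in 11 without wild type vehicle replicate 3 and in 35 without wild type αGalCer replicate 2. αGalCer in knockout called 2 genes without the muscle-rich arrays, 1 without the epithelium-rich arrays and 2 without knockout vehicle replicate 3. Among the lists, the count of genes that rose in wild type went to 1 for the cyclic AMP list and 0 for the PPARα targets without either set of 3 arrays, and to 2 for the creatine and calcium list without the epithelium-rich arrays. Dim genes limit what could be seen, above all for Ucp1, Dio2 and Elovl3.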
